A study of Mus musculus with 24 samples.

Results

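The genes described here are the chemokines and their receptors, 58 genes whose symbols begin with Ccl, Cxcl, Ccr, Cxcr, Ackr or Xcr and a number, together with Pf4, Ppbp, Cx3cl1, Cx3cr1 and Xcl1. The rule used their symbols and no measured value, over 18740 genes listed for either stimulus. All 58 were listed for the M1 and 55 for the M2 libraries, where Ccl1, Ccl20 and Ccr8 were not listed. RNA-seq was carried out on bone marrow-derived macrophages (BMDMs), which are macrophages grown from marrow cells in medium conditioned by L929 cells, from 10-week-old C57BL/6 WT mice and from DRD5-/- mice, made with CRISPR-Cas9, which lack the dopamine receptor DRD5 and not in macrophages alone. The 24 libraries formed 8 groups of 3. LPS at 100 ng/ml with IFN-γ at 50 ng/ml for 12 h gave M1 cells, and IL-4 at 10 ng/ml with IL-13 at 10 ng/ml for 12 h gave M2 cells. Under each stimulus, WT and DRD5-/- BMDMs were left without dopamine (DA) or received it at 20 μM. Every group was stimulated, so no unstimulated level stands behind these values. The labels name bone as the tissue but colon as the origin of the cells, the methods name tibias and femurs, and no source says whether the 3 libraries of a group came from separate mice, so p-values measure the spread between these libraries, which may be technical.

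Chemokines are small secreted proteins that direct the movement of leukocytes by binding G protein-coupled receptors. They are named by the spacing of their first cysteines (CC, CXC, CX3C, XC), and most of them bind several receptors, so that ligands are commonly grouped by receptor: CXCR2 ligands attract neutrophils, CXCR3 ligands attract activated T cells, CCR2 ligands attract monocytes, and CCR1 ligands attract monocytes and T cells. Many chemokine genes lie side by side in clusters that arose by duplication. In macrophages, LPS and IFN-γ are known inducers of inflammatory chemokines, and IL-4 and IL-13 of ligands for CCR3 and CCR4.

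Levels are FPKM, fragments scaled to transcript length and to the mapped fragments of the library, so they can be compared between genes. A gene was tested within a stimulus when it reached 1 FPKM in at least 3 of the 12 libraries. It was called at a limma adjusted p (Benjamini-Hochberg over all genes tested) under 0.001 with a change of at least 1.2-fold, and log2 fold changes are on the log2(FPKM + 1) scale, which understates the change of low genes. In M1, 28 members were tested and 30 were not, with 1.07 FPKM (Cxcr5) as the highest value of an untested member. In M2, 29 were tested and 26 were not, with 1.42 FPKM (Cxcl2) as the highest. The 4 atypical receptors (Ackr1 to Ackr4), which bind chemokines without G protein signalling, were untested under both stimuli. Some members passed through part of the groups alone: Ppbp in M2 through DA-treated WT, Cxcr3 in M2 through both DA-treated groups, and Ccl22, Cxcl1 and Ccl27a in M2 and Ccl24 in M1 through the groups other than DA-treated WT. Counts over the tested members, and the calls of these members that use that stimulus, are therefore descriptions and support nothing further.

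Marker sums followed the labels, with an exception among the M2 markers. All 8 macrophage markers exceeded 1 FPKM, the 6 M1 markers summed to between 4565 and 4576 FPKM in untreated WT M1 against 74.1 to 75.4 in untreated WT M2, and the 6 M2 markers to between 556 and 574 in untreated WT M2 against 79.5 to 80.3 in M1, although Arg1 of this list averaged 64.4 FPKM in untreated WT M1 and 28.9 in M2. Among the M2 libraries 10 of 12 gave Drd5 at 0 FPKM, and it was not listed for M1, so the genotype could not be checked on it. The M1 WT libraries held transcripts of neutrophil markers: the 8 markers summed to 44.7 to 56.6 FPKM in untreated and 63.7 to 83.1 in DA-treated WT, against 14.7 to 18.2 and 17.3 to 20.1 in DRD5-/-, with Elane at 0 in every M1 library. S100a8 had the highest mean of the 8 in every M1 group, at 25 and 41.7 in WT and 15.3 and 17.8 in DRD5-/-. In the same order S100a9 averaged 13.6, 14.9, 0.54 and 0.61, and Ngp 8.5, 8.64, 0.1 and 0.04. Camp averaged 2.56, 3.28, 0.26 and 0.17, and Ltf 2.23, 2.23, 0.03 and 0.01. Ly6g and Mpo were at most 0.33 FPKM in M1. The M2 libraries held stromal transcripts: the 7 markers summed to 131 to 133 FPKM in untreated WT, 109 to 111 in DA-treated WT, 86.7 to 88.8 in untreated and 94.7 to 96.3 in DA-treated DRD5-/-. Markers of T cells, B cells, NK cells, dendritic cells and mast cells or basophils summed to at most 2.57 FPKM in any library. In such bulk libraries, fewer cells of a type and less RNA per cell cannot be told apart.

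Which chemokines accompanied each stimulus was described first, without a test, since the M1 and M2 libraries are separate sets of files and stimulus and set cannot be told apart. Of the 36 members that passed the expression filter in either stimulus and were listed in both, 19 were higher in untreated WT M1 than in M2 BMDMs, without overlap and by at least 2-fold on the log2(FPKM + 1) scale, and 9 were higher in M2. Among all 11143 such genes, 10.5% were higher in M1 and 23.2% in M2. M1 BMDMs were dominated by Ccl5, Cxcl10 and Cxcl9, which made up 69.3% to 70% of all member FPKM in untreated WT, against 1.5% to 1.65% in M2. Ccl5 (RANTES), a ligand of CCR1 and CCR3, was the highest member at 5376 ± 87 FPKM (SD, n = 3) in untreated WT M1 and stood at 19.6 ± 0.96 in M2. The CXCR3 ligands followed, with Cxcl10 at 1747 ± 16 FPKM in M1 and 0.62 ± 0.3 in M2, and Cxcl9 at 1080.1 ± 36 and 0.18 ± 0.06. The CCR2 ligands Ccl2 (1046 ± 8.4) and Ccl7 (777 ± 22) came next, and Cxcl9 and Ccl2 overlapped between libraries while the other neighbours among the first 5 did not.

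**Figure D1:**
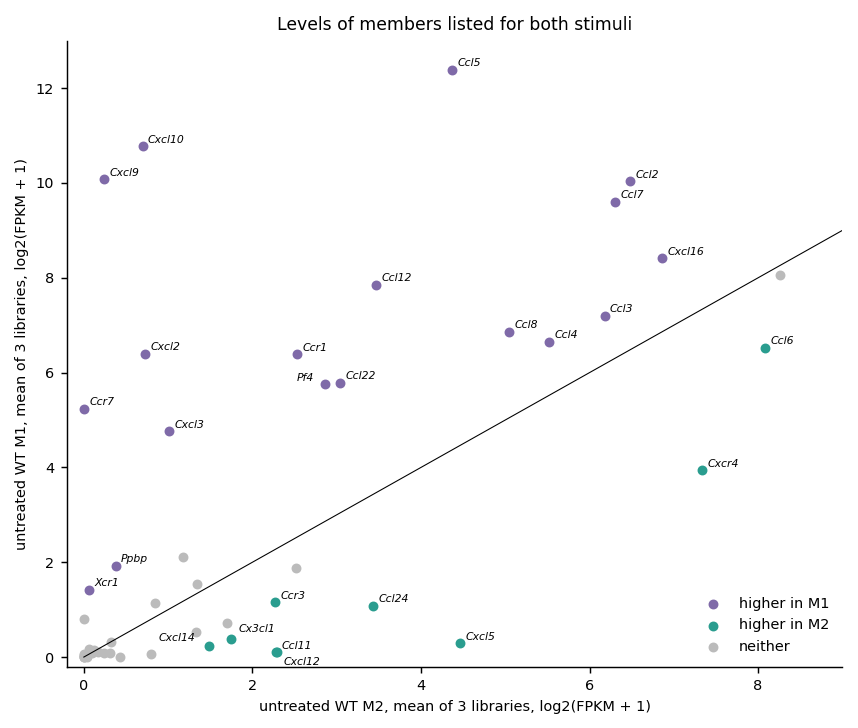
Mean level of members listed for both stimuli in untreated WT M2 (horizontal) and M1 (vertical) BMDMs, 3 libraries each, as log2(FPKM + 1), with the line of equality. The members higher in M1 lie above the line, with Cxcl9, Cxcl10 and Ccl5 farthest from it, and the 9 higher in M2 lie below it, with Cxcl5 and Cxcr4 farthest.

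Untreated WT M2 BMDMs had another order. Ccl9 (304 ± 3.7 FPKM) and Ccl6 (269 ± 7.7), a pair of neighbouring CCR1 ligands of rodents, came first, followed by the CXCL12 receptor Cxcr4 (161 ± 5), the CXCR6 ligand Cxcl16 (115 ± 4.8) and Ccl2 (88.4 ± 4.8), with no overlap between neighbours. The 9 members higher in M2 were Cxcr4 (11.2-fold), Cxcl5 (94-fold), the eotaxin Ccl24 (8.81-fold), Cx3cl1, the single CX3C ligand (7.8-fold), Cxcl14 (10.6-fold), Ccl6 (2.96-fold), the eotaxin receptor Ccr3 (3.1-fold), and Ccl11 and Cxcl12, whose means in M1 were 0.07 FPKM each. Cxcl5, Cx3cl1 and Cxcl14 averaged 0.22, 0.3 and 0.17 FPKM in M1, under the filter, so their ratios rest on low values. On the log2(FPKM + 1) scale M1 minus M2 was -4.175, -1.367 and -1.255 for these genes. The CCR7 receptor gene, whose product guides cells to lymph nodes, stood at 36.9 ± 1.1 FPKM in M1 and was listed at 0 in the 3 untreated WT M2 libraries. Ccl22, a CCR4 ligand, was higher in M1 (54.1 ± 0.9) than in M2 (7.21 ± 0.63).

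The question of the design was whether DA changes the response of macrophages to each stimulus and whether DRD5 is needed for it. In M2 WT BMDMs, the mean FPKM of Pf4 rose 16.6-fold, that of Ccl7 8.11-fold and that of Ccl2 5.28-fold with DA, while Cxcl1, Ccl22, Cxcl5, Cxcr4 and Ccl8 fell between 11.2-fold and 5.03-fold. In DRD5-/- cells none of these shifts was called except that of Ccl22, which was smaller there, and Cxcl5 rose. Of the 29 members tested, 24 were called with DA in WT, 12 higher and 12 lower, against 46.3% of all 10735 genes tested (25.9% higher and 20.4% lower). The median log2 fold change of the 29 was 0.15, against 0.03 over all genes tested. In DRD5-/- M2 BMDMs, DA called 3 of the 29, Ccr3 and Cxcl5 higher and Ccl22 lower, against 4.02% of all genes (3.37% higher and 0.652% lower). An unadjusted limma p under 0.05 was found there for 11 of the 29 members and for 4570 of all 10735 genes. The difference between the DA responses of the genotypes was called for 21 of the 29 members, 10 positive and 11 negative, against 43.2% of all genes (22.8% and 20.4%). Ccl27a, Cxcl12 and Cxcr3 were called with DA in WT but not in this difference.

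**Figure D2:**
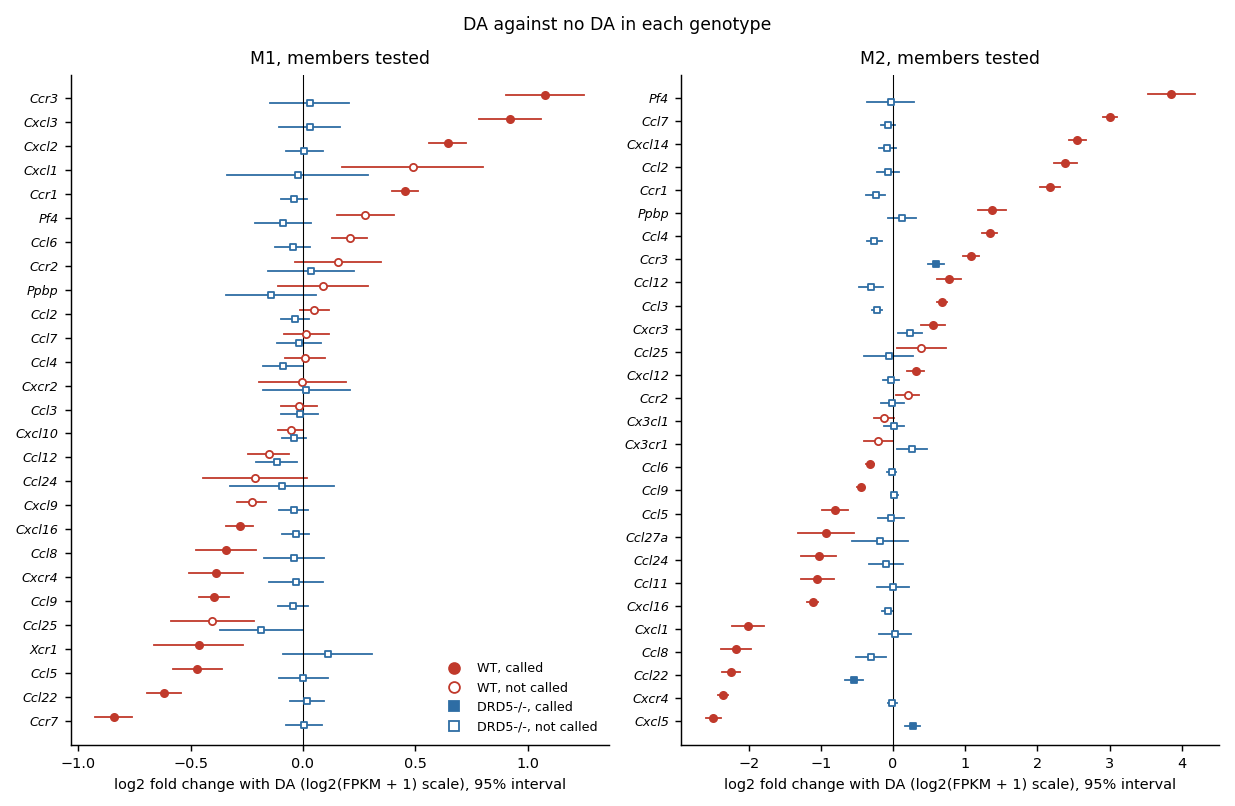
Log2 fold change with DA, on the log2(FPKM + 1) scale with its 95% interval, of each tested member in WT (circles) and DRD5-/- (squares) BMDMs, for M1 (left) and M2 (right); filled symbols were called and the horizontal scales differ. The WT values run from -0.84 to 1.08 in M1 and from -2.49 to 3.86 in M2, and the squares stay between -0.19 and 0.11 in M1 and between -0.55 and 0.60 in M2.

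Of the CXC ligands that attract neutrophils through CXCR2, Cxcl5 and Cxcl1 fell with DA in M2 WT. Cxcl5 measured 21.2, 20.7 and 21 FPKM in untreated and 3.02, 2.76 and 2.95 in DA-treated WT M2 (log2 fold change -2.49, SE 0.047, limma adjusted p = 1.14e-14). In DRD5-/- it measured 13.4, 12.5 and 12.9 without and 16.6, 16.2 and 14.7 with DA, a rise (log2 fold change 0.27, SE 0.047, limma adjusted p = 8.02e-04) whose call was lost when any 1 of 10 of the 12 libraries was left out (log2 fold changes 0.24 to 0.30) and under every alternative but the looser threshold. Cxcl1 fell from 4.35, 4.39 and 5.39 to 0.63, 0.26 and 0.37 FPKM in WT (log2 fold change -2.01, SE 0.1, limma adjusted p = 3.47e-10) and was between 3.56 and 4.65 in the 6 DRD5-/- libraries. It passed the filter in M2 through the groups other than DA-treated WT, so its call is a description. Of the 7 stromal markers, 3 rose and 2 fell with DA in M2 WT: Dcn, a fibroblast proteoglycan gene, went from between 74 and 75.8 to between 42.2 and 45.3 FPKM, and the collagen gene Col1a1 from between 18 and 19.5 to between 22.2 and 24.7. The part of stromal transcripts in the levels of Cxcl5, Cxcl1, Ccl11, Cxcl12 and Cxcl14 was not tested.

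Pf4 (CXCL4) and Ppbp (the precursor of CXCL7), known as chemokines of platelet granules, were both higher with DA in M2 WT. Pf4 went from 7.24, 5.43 and 6.16 to 105, 105 and 102 FPKM in WT (log2 fold change 3.86, SE 0.15, limma adjusted p = 1.80e-11), the largest change of any member, and was between 2.97 and 5.46 in the 6 DRD5-/- libraries. Ppbp measured 0.14, 0.39 and 0.37 FPKM without and 2.68, 2.16 and 2.21 with DA in WT, and at most 0.14 in DRD5-/-, with 2 of the 3 untreated libraries listed at 0. Ppbp entered the test through the DA-treated WT libraries alone, so its call (log2 fold change 1.37) is a description. Of 7 other platelet and megakaryocyte genes, chosen after the values of Pf4 were seen, 1 (Treml1) reached 1 FPKM in M2 and was not called, and the 7 summed to 2.52 to 3.11 FPKM in untreated and 1.52 to 1.98 in DA-treated WT M2.

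The 3 tested CCR2 ligands, which attract monocytes, all rose in M2 WT. Ccl7 (MCP-3) measured 74.7, 78.3 and 80.9 FPKM in the 3 untreated WT M2 libraries and 627, 649.9 and 619 with DA (log2 fold change 3.0, SE 0.045, limma adjusted p = 1.24e-15). In DRD5-/- it measured 52, 55.4 and 55.1 without and 54, 47.6 and 53.2 with DA, so all 3 DA-treated WT libraries lay far above the other 9. Ccl2 (MCP-1), the main ligand of CCR2, went from 90.8, 91.5 and 82.9 to 462, 460.3 and 477 FPKM in WT (log2 fold change 2.39, SE 0.072, limma adjusted p = 1.24e-12). It stayed between 55.2 and 71.8 FPKM in the 6 DRD5-/- libraries, below every WT library. Ccl12 (MCP-5), a paralog of Ccl2 in mice, rose from 10.1 ± 0.9 to 18 ± 2.2 FPKM (log2 fold change 0.78, SE 0.077, limma adjusted p = 4.77e-07). In DRD5-/- it averaged 7.03 ± 0.24 FPKM without and 5.47 ± 0.36 with DA (log2 fold change -0.311, not called). Ccl2 and Ccl7 made up 12.6% to 13% of all member FPKM in untreated WT, 51.8% to 52.8% in DA-treated WT and 9.63% to 10.8% in the 6 DRD5-/- libraries. The sum over the members themselves went from between 0.263% and 0.265% of all FPKM in untreated WT M2 to between 0.42% and 0.424% with DA, and lay between 0.229% and 0.235% in DRD5-/-.

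Of the ligands in the CCR1-ligand gene cluster, 2 rose and 3 fell with DA in M2 WT. Ccl4 (MIP-1β) measured 43.8, 42.5 and 48.5 FPKM without and 114, 118 and 112 with DA (log2 fold change 1.34, SE 0.047, limma adjusted p = 6.21e-12), and Ccl3 (MIP-1α) went from 71.4 ± 1.8 to 114 ± 2.9. Both were lower with DA in DRD5-/- and not called, at -0.26, 95% interval -0.36 to -0.16, for Ccl4 and -0.22, 95% interval -0.29 to -0.15, for Ccl3, and Ccl4 was called lower with median-of-ratios scaling (-0.29, limma adjusted p = 4.08e-04). Their RefSeq spans overlap, at chr11:83648624-83649378, and reads there could have been split between them. Ccl9, the highest member of untreated WT M2, fell from 308, 301 and 304 to 223, 216 and 228 FPKM, and Ccl6 from 269.5, 277 and 262 to 216, 211 and 221. These are small and even shifts (log2 fold changes -0.45 and -0.32), in which no DA-treated WT library reached an untreated one. In the 6 DRD5-/- libraries Ccl9 measured 239 to 249 and Ccl6 262 to 276. With DA in WT, Ccl7 and Ccl2 stood above Ccl9 and Ccl6, which then overlapped each other. Ccl5 fell from 19.6 ± 0.96 to 10.8 ± 1.1 FPKM (log2 fold change -0.81, SE 0.083, limma adjusted p = 6.33e-07).

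The 4 tested ligands of CCR3, CCR4 and CCR8 all fell in M2 WT. Ccl22 (MDC), a ligand of CCR4, measured 6.64, 7.89 and 7.11 FPKM in untreated and 0.68, 0.78 and 0.71 in DA-treated WT M2 (log2 fold change -2.25, SE 0.058, limma adjusted p = 2.25e-13). It also fell in DRD5-/-, from 5.29, 4.95 and 5.23 to 3.21, 3.27 and 3.18 (log2 fold change -0.55, SE 0.058, limma adjusted p = 2.19e-05), by less than in WT (difference -1.71, SE 0.082, limma adjusted p = 3.59e-10). Ccl22 passed the filter in M2 through the groups other than DA-treated WT, so its calls there are descriptions. Ccl8 (MCP-2), which binds CCR8 in mice, went from 32.1, 30.7 and 33.2 to 5.2, 6.17 and 7.72 FPKM (log2 fold change -2.18, SE 0.096, limma adjusted p = 6.63e-11). In DRD5-/- it measured 17.61, 15.39 and 17.48 without and 12.63, 14.65 and 13.02 with DA, between the WT groups. That fall in DRD5-/- (log2 fold change -0.305) was called at an adjusted p of 0.05 alone. The eotaxins Ccl11 (from 3.84 ± 0.61 to 1.33 ± 0.15 FPKM) and Ccl24 (from 9.78 ± 1.1 to 4.26 ± 0.48) fell as well, and Ccl17, the other CCR4 ligand, was untested at 0.62 FPKM or less. The group summed to 53.2 ± 1.51 FPKM in untreated and 12.8 ± 1.88 in DA-treated WT, and to 32.7 ± 1.83 and 26.6 ± 0.654 in DRD5-/-.

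Among the homeostatic and other ligands, Cxcl14, a CXC chemokine made by epithelia and fibroblasts, rose from 1.72, 1.85 and 1.81 to 16.2, 15.1 and 14.9 FPKM (log2 fold change 2.55, SE 0.056, limma adjusted p = 4.74e-14) and was between 2.79 and 3.34 in DRD5-/-. Cxcl12, the ligand of CXCR4, rose from 3.88 ± 0.22 to 5.05 ± 0.09 (log2 fold change 0.31, SE 0.053, limma adjusted p = 9.87e-05). Cxcl16, a membrane-bound ligand of CXCR6 and scavenger of oxidised lipoprotein, went from 113, 111 and 120.2 to 52.5, 51.2 and 53.8 FPKM (log2 fold change -1.11, SE 0.035, limma adjusted p = 1.78e-12) and measured 92.3 to 103 in DRD5-/-. Ccl27a, whose near copy Ccl27b may share its reads, fell (log2 fold change -0.93, SE 0.18, limma adjusted p = 2.86e-04), a call lost without untreated replicate 1 or 3 or DA-treated replicate 2 (-0.92 to -0.72). Ccl25 and Cx3cl1 were not called, at 0.39, 95% interval 0.06 to 0.73 and -0.12, 95% interval -0.26 to 0.02.

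The receptors divided as well. Cxcr4, the receptor of CXCL12, fell from 165, 162 and 155 to 29.7, 30.2 and 31.9 FPKM in WT M2 (log2 fold change -2.36, SE 0.029, limma adjusted p = 3.36e-16), and between its DRD5-/- groups, at 148, 148 and 147 without and 145, 148 and 147 with DA, the change was -0.01, 95% interval -0.08 to 0.05. Cxcr4 thus fell while its ligand Cxcl12 rose. Ccr1, a receptor of CCL3, CCL5 and CCL9, went from 4.96, 4.27 and 5.07 to 25.3, 24.2 and 25.5 FPKM in WT (log2 fold change 2.17, SE 0.062, limma adjusted p = 6.10e-13), and measured 6.42, 6.09 and 6.45 without and 5.66, 5.21 and 4.72 with DA in DRD5-/-.

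Ccr3, the eotaxin receptor, was the one receptor called with DA in both genotypes. It measured 3.98, 3.9 and 3.57 FPKM in untreated and 9.27, 8.85 and 9.5 in DA-treated WT (log2 fold change 1.08, SE 0.051, limma adjusted p = 1.26e-10), and 5.64, 5.51 and 5.86 without and 8.67, 9.7 and 8.95 with DA in DRD5-/- (log2 fold change 0.60, SE 0.051, limma adjusted p = 3.11e-06). Both DA-treated groups overlapped (difference 0.01, 95% interval -0.10 to 0.12), and the genotypes differed before DA (0.47 in DRD5-/- against WT). Cxcr3, the receptor of CXCL9 and CXCL10, measured 0.71, 0.84 and 0.68 without and 1.48, 1.5 and 1.69 with DA in WT, and 0.78, 0.82 and 0.78 without and 0.99, 1.36 and 1.0 with DA in DRD5-/-. Cxcr3 entered the test through the DA-treated libraries alone, so its call (log2 fold change 0.55) is a description as well. Ccr2 (1.33, 1.36 and 1.09 without and 1.46, 1.68 and 1.66 with DA in WT, 1.46, 1.34 and 1.08 without and 1.28, 1.31 and 1.23 with DA in DRD5-/-) was not called. Cx3cr1 was not called either, at 1.28, 1.57 and 1.69 without and 1.2, 1.38 and 0.97 with DA in WT, and 1.36, 1.31 and 0.96 without and 1.55, 1.85 and 1.53 with DA in DRD5-/-. Ccr2 thus lay between 1.08 and 1.68 FPKM in all 12 libraries, those in which its ligands rose included.

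**Figure D3:**
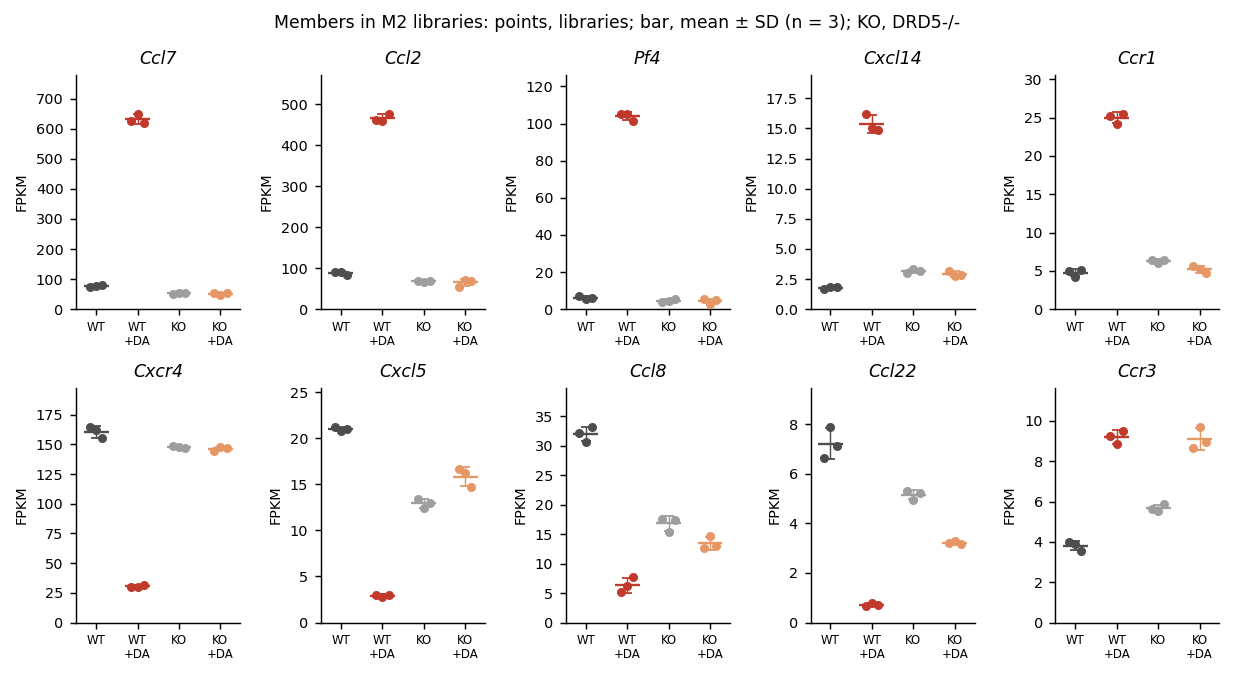
FPKM of 10 members in the 12 M2 libraries, by group (KO, DRD5-/-); points are libraries and bars the mean ± SD of 3. DA-treated WT stands apart from the other 3 groups in every panel but that of Ccr3, where both DA-treated groups lie near 9 FPKM. The panels of Ccl7, Ccl2, Cxcr4, Cxcl5, Ccl8 and Ccl22 also show lower values in DRD5-/- than in untreated WT.

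Untreated DRD5-/- M2 BMDMs differed from untreated WT in 13 of the 29 members, 5 higher and 8 lower, against 5.51% of all genes tested (1.37% higher and 4.15% lower). Ccl8 was the most reduced (log2 fold change -0.89, SE 0.096, limma adjusted p = 1.21e-05), followed by Ccl24 (-0.74), Cxcl5 (-0.66), Ccl7 (-0.52), Ccl12 (-0.46), Ccl22 (-0.41) and Ccl9 (-0.33). The higher ones were Cxcl14 (log2 fold change 0.57, SE 0.056, limma adjusted p = 4.82e-06), Ccl4 (0.49), Ccr3 (0.47), Ccr1 (0.35) and Ccl3 (0.34). The calls of Ccl12, Ccl24, Ccl22 and Ccr1 were lost without single libraries. That of Ccr1 was lost without any of the 6 untreated libraries, any DA-treated WT library or DA-treated DRD5-/- replicate 2 (0.28 to 0.39). That of Ccl12 was lost without any untreated library but WT replicate 1, or without DA-treated WT replicate 2 (-0.40 to -0.48). That of Ccl24 was lost without untreated WT replicate 2 or untreated DRD5-/- replicate 1 or 2 (-0.66 to -0.73). That of Ccl22 was lost without untreated DRD5-/- replicate 2 (-0.39). Calls were also lost with no expression filter (Ccr1, Ccl12, Ccl24), a replicate block (Ccr1, Ccl12), the compared groups alone (Ccr1, Ccl22) and median-of-ratios scaling (Ccl12). This comparison and that of DA in WT share the untreated WT libraries. The stromal marker sum was also lower in untreated DRD5-/- than in untreated WT, with 5 of the 7 markers called lower and 2 higher. Dcn, the highest of them, averaged 75.2 FPKM in untreated WT and 42.5 in untreated DRD5-/-. Cdh5 (0.59 and 1.8) and Pecam1 (4.98 and 6.38) went the other way. With median-of-ratios scaling the calls over all genes went from 147 higher and 445 lower to 225 and 336, and those of the members from 5 and 8 to 5 and 7.

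With DA in both genotypes, WT and DRD5-/- M2 BMDMs differed in 20 of the 29 members, 11 higher and 9 lower in WT, against 49.7% of all genes (29.2% higher and 20.4% lower). Pf4 (log2 fold change 4.32, SE 0.15, limma adjusted p = 4.98e-12) and Ccl7 (3.59) were higher in WT by the most, and Cxcr4 (-2.22) and Cxcl5 (-2.1) lower by the most. In DRD5-/- with DA against without, median-of-ratios scaling changed the members' calls from 2 higher and 1 lower to 1 and 2, with Cxcl5 lost and Ccl4 gained, and those over all genes from 362 and 70 to 293 and 127.

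In M1 WT BMDMs, DA came with log2 fold changes of -0.84 to 1.08. The neutrophil attractants Cxcl3 and Cxcl2 and the receptors Ccr3 and Ccr1 rose, and Ccr7, Ccl22, Ccl5, Xcr1, Ccl9, Cxcr4, Ccl8 and Cxcl16 fell. These were 12 of 28 members tested, 4 higher and 8 lower, against 14.3% of all 10040 genes (4.73% higher and 9.6% lower). The median log2 fold change of the 28 was -0.03, against -0.07 over all genes tested. With median-of-ratios scaling the calls over all genes went from 475 higher and 964 lower to 676 and 539, and those of the members to 6 higher and 5 lower, with Ccl6 and Pf4 then also called higher and Ccl8, Cxcl16 and Xcr1 no longer called. In DRD5-/- M1 BMDMs limma called 0 of the 28 members and 0% of all genes, 0% in either direction. An unadjusted limma p under 0.05 was found for 2 of the 28 members and for 569 of all 10040 genes.

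The difference between the genotypes' responses in M1 was called for 8 of the 28 members, 4 positive and 4 negative, against 8.38% of all genes (3.2% and 5.18%). Ccl8, Cxcl16, Cxcr4 and Xcr1 were called with DA in WT but not in this difference. The call of Ccl5 was lost with median-of-ratios scaling (-0.40, limma adjusted p = 0.00145) and with no expression filter (-0.47, limma adjusted p = 0.00419). With DA in both genotypes, 11 members differed between WT and DRD5-/- M1, 5 higher and 6 lower in WT, against 18.5% of all genes (5.95% and 12.6%). Without DA, limma called 0 of the 28 members between DRD5-/- and WT M1, against 0.936% of all genes (0.727% higher and 0.209% lower). An unadjusted limma p under 0.05 was found there for 10 of the 28 members and for 2557 of all 10040 genes. Scaling by median of ratios moved the split over all genes from 597 and 1264 to 875 and 792 between the DA-treated genotypes, where the members went to 7 and 4. It moved the split for the difference of responses from 321 and 520 to 460 and 260, where the members went to 5 and 3.

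Of the 4 tested CXCR2 ligands in M1, 2 rose with DA in WT. Cxcl3 measured 25.7, 25.6 and 27.1 FPKM in untreated and 50.0, 49.4 and 51.9 in DA-treated WT (log2 fold change 0.92, SE 0.064, limma adjusted p = 3.59e-08), and 24.2, 28.5 and 22.1 without and 24.7, 25.2 and 26.2 with DA in DRD5-/-. Cxcl2 (MIP-2) went from 87.1, 82.4 and 80.6 to 133, 133 and 126 in WT (log2 fold change 0.64, SE 0.038, limma adjusted p = 7.22e-09), with 84.3, 81.2 and 86.1 without and 86.5, 85.9 and 80.4 with DA in DRD5-/-. For both genes the 3 DA-treated WT libraries lay above the other 9, which overlapped. Cxcl1 was low, at 2.1, 3.55 and 2.42 FPKM without and 3.91, 4.44 and 3.98 with DA in WT, and was not called (adjusted p = 0.0136). The ligands of this group summed to 115.2 ± 2.64 FPKM in untreated and 188.6 ± 3.04 in DA-treated WT, and to 114.6 ± 0.831 and 115.0 ± 3.04 in DRD5-/-. Neutrophil marker sums were also highest in DA-treated WT M1, where 1 of the 5 tested neutrophil markers (S100a8) was called higher with DA, and their part in these rises was not tested. Without DA, WT and DRD5-/- M1 overlapped in Cxcl2 and Cxcl3. The difference in the Cxcl1 response between stimuli was called (M1 minus M2 2.50, SE 0.19, limma adjusted p = 9.52e-11), while Cxcl2 and Cxcl3 were untested in M2. This call is a description, since Cxcl1 passed the filter in M2 through the groups other than DA-treated WT.

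The CXCR3 and CCR2 ligands were not called with DA in M1 WT. Cxcl10 measured 1760.5, 1729 and 1752 FPKM without and 1679, 1687 and 1681 with DA (-0.05, 95% interval -0.11 to 0.00). Cxcl9 measured 1072, 1048 and 1119.7 without and 927, 945 and 893 with DA, a shift below 1.2-fold (-0.23, 95% interval -0.29 to -0.16) in which the groups did not overlap. Ccl2 measured 1039, 1043 and 1055 without and 1064, 1092 and 1092 with DA (0.05, 95% interval -0.01 to 0.12), and Ccl7 796, 753 and 782 without and 773, 791 and 791 with DA (0.01, 95% interval -0.08 to 0.11). The M1 WT groups overlapped for Ccl7, and for Ccl2 the DA-treated libraries lay just above the untreated ones. Pf4, at 57.6, 49.5 and 52 without and 63.2, 66 and 64 with DA, missed the threshold in M1 WT (adjusted p = 0.0014), and it was called higher in WT than in DRD5-/- BMDMs given DA (log2 fold change 0.39, SE 0.059, limma adjusted p = 7.57e-05).

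Ccl5 was the ligand with the largest loss in level. It measured 5280.0, 5399 and 5449 FPKM in untreated and 4011, 3620.2 and 4015 in DA-treated WT M1 (log2 fold change -0.47, SE 0.051, limma adjusted p = 3.64e-06), and 5494, 6006 and 5991 without and 6295, 5698 and 5536 with DA in DRD5-/-, so the DA-treated WT libraries lay below all others. The sum over the members accordingly went from between 2.39% and 2.46% of all FPKM in untreated WT M1 to between 2.03% and 2.09% with DA, and lay between 2.39% and 2.52% in DRD5-/-. Ccl22 fell from 53.4, 53.8 and 55.1 to 35.5, 33.6 and 35.6 FPKM (log2 fold change -0.62, SE 0.036, limma adjusted p = 5.91e-09) and measured 55.7, 60.2 and 56.1 without and 59.6, 57.8 and 56.6 with DA in DRD5-/-. Ccl9 fell from 272, 262 and 266 to 208, 203 and 196 (log2 fold change -0.40, SE 0.031, limma adjusted p = 1.21e-07), and Ccl8 from 122, 110.2 and 114 to 93, 90.7 and 88 (log2 fold change -0.34, SE 0.062, limma adjusted p = 4.03e-04). Cxcl16 fell from 344, 342 and 331 to 273, 283 and 279 (log2 fold change -0.28, SE 0.028, limma adjusted p = 1.49e-06). In the 6 DRD5-/- libraries Ccl9 measured 239 to 260.3 FPKM, Ccl8 99.8 to 121 and Cxcl16 318 to 340.1, all above the DA-treated WT libraries. The call of Ccl8 was lost without untreated WT replicate 1 or 3 or any DA-treated WT library (-0.36 to -0.30).

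Among the receptors in M1, 2 rose and 3 fell. Ccr7, the receptor of CCL19 and CCL21, fell the most of any member, from 37.4, 35.6 and 37.6 to 19.9, 20.7 and 19.7 FPKM in WT (log2 fold change -0.84, SE 0.037, limma adjusted p = 3.68e-10), with 37.8, 39.6 and 39.3 without and 40.5, 37.3 and 39.4 with DA in DRD5-/-. Cxcr4 fell from 14.5, 14.9 and 13.7 to 11, 9.88 and 11.4 (log2 fold change -0.39, SE 0.056, limma adjusted p = 6.27e-05), with 15.2, 13.3 and 14.4 without and 13.9, 13.7 and 14.4 with DA in DRD5-/-. Xcr1, the receptor of XCL1 known from cross-presenting dendritic cells, was near the filter at 2.03, 1.48 and 1.51 without and 1.03, 0.87 and 0.89 with DA (log2 fold change -0.47, SE 0.093, limma adjusted p = 9.35e-04), and 1.67, 1.2 and 1.48 without and 1.68, 1.8 and 1.44 with DA in DRD5-/-. The dendritic cell markers summed to 1.21 to 1.54 FPKM in untreated and 1.14 to 1.35 in DA-treated WT M1, and their part in the level of Xcr1 was not tested. The call of Xcr1 was lost without any 1 of the 6 WT libraries (-0.52 to -0.37) or of 3 DRD5-/- libraries.

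Ccr1 rose from 83, 80.3 and 84.1 to 115, 114 and 112 FPKM in WT M1 (log2 fold change 0.46, SE 0.027, limma adjusted p = 8.41e-09) and measured 77.4, 73.7 and 75.5 without and 73, 73.9 and 73.7 with DA in DRD5-/-. Ccr3 rose from 1.28, 1.14 and 1.27 to 4.04, 3.87 and 3.24 (log2 fold change 1.08, SE 0.082, limma adjusted p = 9.77e-08) and measured 1.29, 1.23 and 1.34 without and 1.32, 1.12 and 1.59 with DA in DRD5-/-, where its change with DA was 0.03, 95% interval -0.14 to 0.21. Whether the response of Ccr3 in DRD5-/- differed between the stimuli was not tested. Neutrophils also express Ccr1, and the part of neutrophil transcripts in its level was not tested. Ccr2 and Cxcr2 were not called. Ccr2 measured 3.39, 3.04 and 3.61 without and 3.67, 3.88 and 3.97 with DA in WT, and 3.26, 2.17 and 2.95 without and 2.81, 2.79 and 2.97 with DA in DRD5-/-. Cxcr2, the neutrophil receptor of the CXC ligands above, stood at 1.15, 1.26 and 1.21 without and 1.43, 1.14 and 1.05 with DA in WT and 1.07, 0.88 and 1.35 without and 1.0, 1.06 and 1.29 with DA in DRD5-/-, and all 4 groups overlapped.

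**Figure D4:**
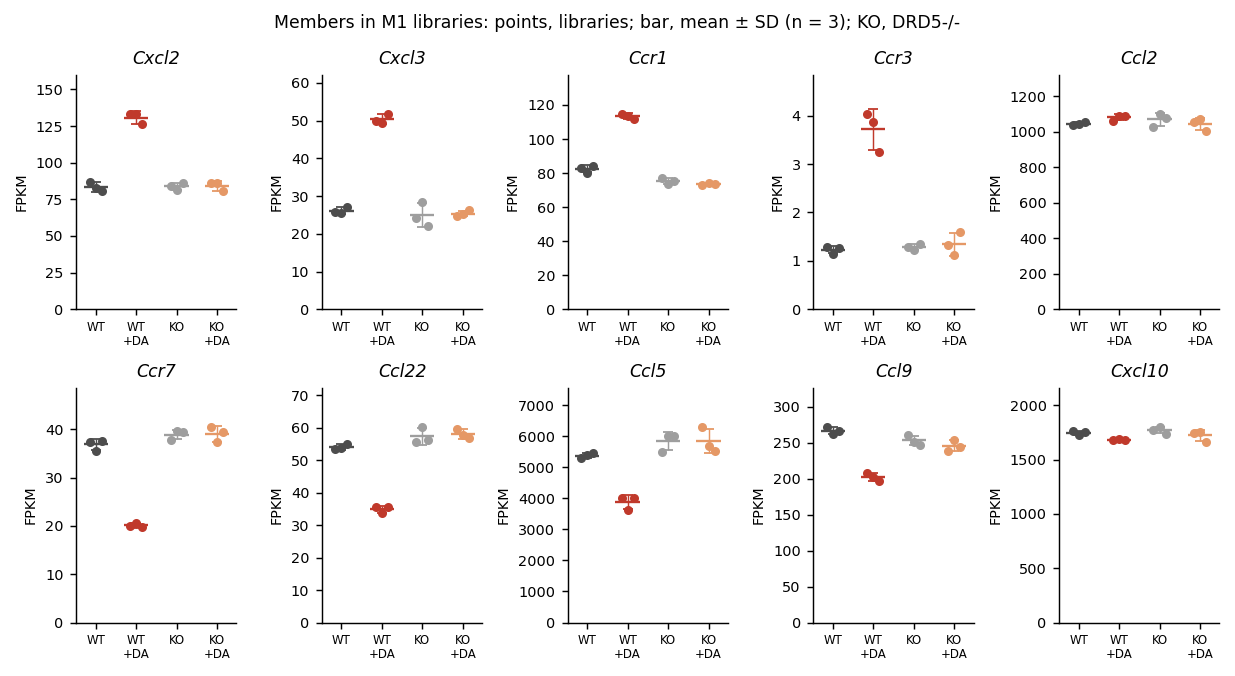
FPKM of 10 members in the 12 M1 libraries, by group (KO, DRD5-/-); points are libraries and bars the mean ± SD of 3. DA-treated WT lies above the other groups for Cxcl2, Cxcl3, Ccr1 and Ccr3 and below them for Ccr7, Ccl22, Ccl5 and Ccl9, while Ccl2, at 1007 to 1103 FPKM, and Cxcl10 stay at similar levels in all 4 groups.

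The DA response of WT BMDMs was then compared between the stimuli for the 21 members tested in both. It differed for 16 of them, 7 with a more positive response in M1 and 9 with a more positive response in M2, against 47.4% of the 9620 genes tested in both (18% and 29.3%). Called with DA in WT under both stimuli were 2 members that rose, Ccr1 and Ccr3, and 6 that fell, Ccl5, Ccl8, Ccl9, Ccl22, Cxcl16 and Cxcr4. No member was called in opposite directions (0 of 21), and 10 were called in M2 alone, each with a called difference between the stimuli, of which that of Ccl24 was lost with a pseudocount of 0.1 (0.79, limma adjusted p = 0.00615). For Ccr1, the rise was larger in M2 (M1 minus M2 -1.72, SE 0.068, limma adjusted p = 4.02e-16), and for Cxcr4, Ccl8 and Ccl22 the fall was larger in M2 (1.97, 1.84 and 1.63). For Pf4, Ccl7 and Ccl2 the differences were -3.58, -2.99 and -2.34. Those of Ccr3, Ccl5 and Ccl9 were not called.

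Neighbouring members of a gene cluster moved in opposite directions with DA in M2 WT. RefSeq (GRCm38.p6) places 7 members in a CXC cluster at chr5:90759298-90905938. In M2 WT, Cxcl5 at its start fell, Ppbp and Pf4 after it, beginning 9.2 and 13.1 kb on, were higher, and Cxcl1, 131.9 kb on, fell, whereas in M1 WT the called members were Cxcl3 and Cxcl2, both higher. The CCR2-ligand cluster at chr11:82035577-82179812 holds 6 members, of which Ccl2, Ccl7 and Ccl12 rose and Ccl11 and Ccl8 fell in M2 WT, in the order Ccl2, Ccl7, Ccl11, Ccl12, Ccl8. The CCR1-ligand cluster at chr11:83525778-83664683 holds Ccl5, Ccl9 and Ccl6, which fell in M2 WT, and Ccl3 and Ccl4 beyond them, which rose. In the receptor cluster on chromosome 9, Ccr1 and Ccr3 rose under both stimuli, Xcr1 fell in M1 and Ccr2 was not called. Cxcr4 lies apart from these at chr1:128588199-128592299, and Cxcl14 at chr13:56288643-56296811.

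**Figure D5:**
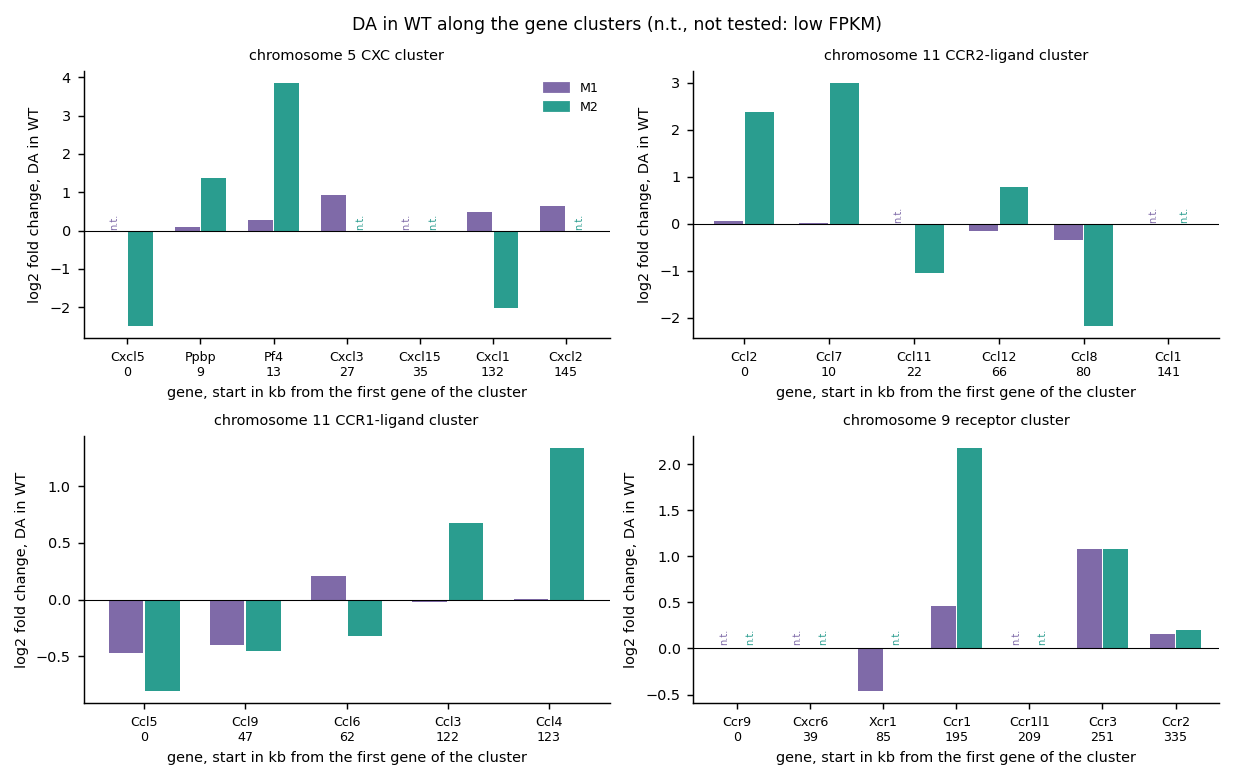
Log2 fold change with DA in WT BMDMs of the members of 4 gene clusters, in their order along the chromosome, with the start of each gene in kb from the first (n.t., not tested). In M2 each of the first 3 clusters holds members that rose and members that fell, while Ccr1 and Ccr3 in the receptor cluster rose under both stimuli and Xcr1 fell in M1.

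The 250 bases before the start sites of 5 members of the chromosome 5 cluster are printed because Ppbp and Pf4 were higher and Cxcl1 fell with DA in M2, and Cxcl2 and Cxcl3 rose in M1. They are from RefSeq (GRCm38.p6), which had such a window for 44 of the 58 members and none for 14, Cxcl5, Ccl2 and Ccl7 among them. All lie on the plus strand and read 5′ to 3′, and capitals mark matches, on either strand, to GGGNNNNNCC (a κB-type motif), TTCNNNGAA (GAS), TTCNNNNGAA (STAT6), TGACGTCA (CRE), TGANTCA (AP-1), TTGCNNCAA (C/EBP) and TATAAA. The windows are chr5:90768268-90768517 for Ppbp, chr5:90772185-90772434 for Pf4, chr5:90785851-90786100 for Cxcl3, chr5:90890995-90891244 for Cxcl1 and chr5:90903649-90903898 for Cxcl2.
Ppbp: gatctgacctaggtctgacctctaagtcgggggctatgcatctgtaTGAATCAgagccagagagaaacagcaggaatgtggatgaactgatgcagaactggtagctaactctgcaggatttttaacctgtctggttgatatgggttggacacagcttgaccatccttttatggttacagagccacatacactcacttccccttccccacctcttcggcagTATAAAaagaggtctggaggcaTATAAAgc
Pf4: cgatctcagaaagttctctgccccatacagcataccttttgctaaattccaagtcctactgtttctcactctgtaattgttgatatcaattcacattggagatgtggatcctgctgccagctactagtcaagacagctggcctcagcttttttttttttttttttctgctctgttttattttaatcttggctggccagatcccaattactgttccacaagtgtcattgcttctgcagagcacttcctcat
Cxcl3: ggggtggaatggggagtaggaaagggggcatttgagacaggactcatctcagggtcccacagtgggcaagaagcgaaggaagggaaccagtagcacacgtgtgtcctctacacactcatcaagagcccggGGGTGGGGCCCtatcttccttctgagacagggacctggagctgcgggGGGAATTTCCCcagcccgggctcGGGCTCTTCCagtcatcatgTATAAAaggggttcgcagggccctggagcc
Cxcl1: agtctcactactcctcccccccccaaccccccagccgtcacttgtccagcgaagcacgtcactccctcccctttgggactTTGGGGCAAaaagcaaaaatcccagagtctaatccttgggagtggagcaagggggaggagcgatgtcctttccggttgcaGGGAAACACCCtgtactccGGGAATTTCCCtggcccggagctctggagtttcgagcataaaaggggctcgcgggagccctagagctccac
Cxcl2: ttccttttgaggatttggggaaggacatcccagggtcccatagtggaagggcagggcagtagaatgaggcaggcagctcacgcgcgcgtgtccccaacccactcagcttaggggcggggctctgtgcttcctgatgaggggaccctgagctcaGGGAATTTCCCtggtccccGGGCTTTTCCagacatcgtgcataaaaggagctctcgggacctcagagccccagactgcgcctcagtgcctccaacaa

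The same 10 letters, GGGAATTTCC, stood in the windows of Cxcl3 (from -73), Cxcl1 (from -71) and Cxcl2 (from -97, counted from the start site), and in no part of those of Ppbp and Pf4. These letters were picked because they were the κB-type match shared by the most of the 5 windows. Their presence there was therefore set by the choice, and their share over all windows tests nothing. They occurred in 28 of 32536 windows of the same length (0.0861%), and among the members in those 3 genes and Ccr3. The looser GGGNNNNNCC, whose matches on opposite strands overlap in these windows, occurred in 46% of all windows, which include alternative start sites of a gene. It occurred in the first listed window of 24 of 44 members (54.5%), and was absent from the windows of Ppbp and Pf4. TATAAA occurred in the windows of Ppbp and Cxcl3, and in 12.3% of all windows, TGANTCA in that of Ppbp and in 6.73% of all, and TTGCNNCAA in that of Cxcl1 and in 1.75% of all. The GAS, STAT6 and CRE letters were in none of the 5 windows, and in 7.04%, 5.89% and 1.56% of all. A match is a description of the letters and says nothing of binding in these cells.

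The genes around chemokine signalling were counted on 4 hand-written lists, with the percentages of all genes tested that rose and fell in brackets. Among genes that couple receptors to G proteins and arrestins, 4 of 24 tested rose and 0 fell with DA in M1 WT (4.73% and 9.6%). They were led by the RGS genes Rgs2 (0.77 on the log2 scale), Rgs3 (0.52) and Rgs1 (0.49), whose products end G protein signals. In M2 WT 7 of 25 rose and 4 fell (25.9% and 20.4%), led by Rgs16 (1.23), Gna13 (-0.79) and Rgs1 (0.76). Of the effectors of migration, 2 of 38 rose and 8 fell in M1 WT (4.73% and 9.6%), with the integrin chain Itgal (-0.78), the complement receptor C5ar1 (0.76) and the kinase subunit Pik3cd (-0.53) first. In M2 WT 14 of 36 rose and 5 fell (25.9% and 20.4%), with Itgal (1.39), Pak1 (0.96) and C5ar1 (0.87) first. Itgal thus fell in M1 and rose in M2.

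Of the genes that cleave, bind or present chemokines, 4 of 23 rose and 3 fell in M1 WT (4.73% and 9.6% of all genes). They were led by the collagenase Mmp8 (1.26), the elastase Mmp12 (0.64) and Ndst1 (0.59), an enzyme of heparan sulfate synthesis. In M2 WT 6 of 22 rose and 10 fell (25.9% and 20.4% of all genes), led by Mmp8 (1.71), the chemerin-binding receptor Ccrl2 (-1.24) and the proteoglycan Sdc1 (-1.11). Of transcription factors and regulators known to act at chemokine genes, 1 of 28 rose and 8 fell in M1 WT (4.73% and 9.6%), led by Junb (-0.46), Irf8 (-0.42) and Bcl3 (-0.37). In M2 WT 3 of 29 rose and 13 fell (25.9% and 20.4%), led by Nfkbiz (-1.06), Bcl3 (-1.0) and Stat3 (-0.83). The median log2 fold changes of the coupling, migration, cleaving and binding, and transcription factor lists were -0.01, -0.02, 0.04 and -0.07 in M1 WT, against -0.07 over all genes tested, and 0.17, 0.16, -0.19 and -0.08 in M2 WT, against 0.03. In DRD5-/- BMDMs DA called 0 genes of the 4 lists in M1, and 0% of all genes. In DRD5-/- M2 it called 1 higher and 1 lower of 25 coupling genes and 1 higher of 36 migration effectors. It called 0 of 22 cleaving and binding genes and 3 higher of 29 transcription factors. Of all genes tested there, 3.37% were called higher and 0.652% lower.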

How the data were processed

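The authors deposited 1 table of gene-level FPKM values per library, rounded to 2 decimals and with no read counts, so the depth behind a value is unknown and no counting interval is given. FPKM summed to between 476187 and 503799 in each library. The libraries were sequenced on a BGISEQ-500. The submitters' processing notes name Bowtie2 2.2.5 and GRCm38.p6, while the study's methods name another aligner and patch of the build.

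Groups came from the labels. Each stimulus was fitted alone (12 libraries, 4 group means) with limma 3.58.1 in R 4.3.3, with an intensity trend, on log2(FPKM + 1), for genes at 1 FPKM or more in at least 3 libraries. Tests were two-sided with Benjamini-Hochberg adjustment over all genes tested, and calls took the study's threshold (adjusted p under 0.001, 1.2-fold). A joint fit of the 24 libraries compared the DA responses of the stimuli. The fit was checked on simulated data. Members and lists were chosen with earlier results of these data known. Values in every library are given for the 12 called members of largest change with DA in WT, the 5 highest members and the tested receptors of each stimulus, and up to 3 called genes are named per other list. Each result was recomputed without each library in turn, with median-of-ratios scaling, with a replicate block, on the compared groups alone, at an adjusted p of 0.05, with 0.1 as pseudocount and on unfiltered genes. No 2 libraries were identical. A gene of the set is counted among the members and is not reported here.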

Additional observations from a re-analysis of the deposited data

Results flagged for a closer look

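The size of the DA response differed between the genotypes, in a test of the difference itself, for 8 of 28 tested members in M1 and 21 of 29 in M2 BMDMs. Over all genes tested the shares were 8.38% in M1 and 43.2% in M2. Each value below is the log2 fold change with DA in WT minus that in DRD5-/- BMDMs, with 3 libraries in each of the 4 groups. In M1 BMDMs the difference was positive for Ccr3 (1.05), Cxcl3 (0.89), Cxcl2 (0.64) and Ccr1 (0.49). It was negative in M1 for Ccr7 (-0.85), Ccl22 (-0.64), Ccl5 (-0.47) and Ccl9 (-0.35). In M2 BMDMs the difference was positive for Pf4 (3.89), Ccl7 (3.08), Cxcl14 (2.63), Ccl2 (2.46), Ccr1 (2.42), Ccl4 (1.60), Ppbp (1.24), Ccl12 (1.09), Ccl3 (0.89) and Ccr3 (0.48). It was negative in M2 for Cxcl5 (-2.76), Cxcr4 (-2.34), Cxcl1 (-2.04), Ccl8 (-1.87), Ccl22 (-1.71), Ccl11 (-1.05), Cxcl16 (-1.04), Ccl24 (-0.94), Ccl5 (-0.78), Ccl9 (-0.47) and Ccl6 (-0.30). Ppbp entered the M2 test through the DA-treated WT libraries alone, and its call was lost with a pseudocount of 0.1 (1.84, limma adjusted p = 0.00273). Cxcl1 and Ccl22 entered the M2 test through the groups other than DA-treated WT. The call of Ccl5 in M1 was lost with no expression filter and with median-of-ratios scaling.

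The DA response of WT BMDMs also differed between the stimuli for 16 of the 21 members tested in both, against 47.4% of all genes tested in both. Each value is the log2 fold change with DA in M1 minus that in M2, from a joint fit of the 24 libraries. It was positive for Cxcl1 (2.50), Cxcr4 (1.97), Ccl8 (1.83), Ccl22 (1.63), Cxcl16 (0.83), Ccl24 (0.82) and Ccl6 (0.53). It was negative for Pf4 (-3.58), Ccl7 (-2.99), Ccl2 (-2.34), Ccr1 (-1.72), Ccl4 (-1.33), Ppbp (-1.28), Ccl12 (-0.93), Ccl25 (-0.80) and Ccl3 (-0.69). The call of Ccl25 was lost without any 1 of 8 of the 12 WT libraries (-0.84 to -0.67). The same call was also lost with no expression filter, with median-of-ratios scaling and with a replicate block (limma adjusted p = 0.00241, 0.001016 and 0.001112). The call of Ccl24 was lost with a pseudocount of 0.1 (0.79, limma adjusted p = 0.00615), and Ppbp, Cxcl1 and Ccl22 entered the M2 test as said above. Ccl24 entered the M1 test through the groups other than DA-treated WT. The M1 and M2 libraries came as separate sets of files that list different genes, so stimulus and set cannot be told apart.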

How the results depend on the processing

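No called value changed direction under any of these alternatives (0 reversed), and the signs of values that were never called were not compared. The members called with DA in DRD5-/- M2 went from 3 to 5 at an adjusted p of 0.05, with Ccl8 (-0.305) and Ccl12 (-0.311) then also called lower. Every other count of members stayed within 1.5 times its value. Over the fits that left out 1 library, the members called in M1 were 10 to 12 with DA in WT, 0 with DA in DRD5-/-, 9 to 12 between the DA-treated genotypes, 0 between the untreated genotypes and 8 to 9 in the difference of responses. In M2 they were 23 to 24, 2 to 3, 19 to 21, 9 to 14 and 21 to 22, and between the stimuli 15 to 16. For single members, calls were lost and gained in 11 and 0 cases with no expression filter, which also called 9 untested members between the stimuli, 9 and 7 with median-of-ratios scaling, 6 and 1 with the compared groups alone, and 3 and 0 with a pseudocount of 0.1 (Cxcl5 with DA in DRD5-/- M2, Ppbp in the difference of responses in M2 and Ccl24 between the stimuli). The labels number the libraries of each group, but same-numbered libraries did not deviate together (mean correlation of residuals -0.021 in M1 and -0.016 in M2), and 1 of 12 M1 and 4 of 12 M2 libraries correlated best with their own number. With a replicate block the counts were 13, 0, 12, 0 and 8 in M1, 24, 2, 20, 11 and 21 in M2 and 15 between the stimuli. Without counts, what depth limits at low FPKM cannot be stated.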

Other observations

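Members under the expression filter were left out of the tests, and some lay close to it in M2. Cxcl2 measured 0.72, 0.63 and 0.60 FPKM in untreated and 1.12, 0.96 and 1.42 in DA-treated WT M2, and 0.38 to 0.79 in the 6 DRD5-/- libraries, so the 3 DA-treated WT libraries were the highest, as for Cxcl2 in M1. Cxcl3 measured 1.02, 0.68 and 1.33 in untreated and 0.68, 0.40 and 0.84 in DA-treated WT M2, and at most 0.51 in DRD5-/-. Ccl17, the CCR4 ligand beside Ccl22, was between 0.12 and 0.61 in untreated WT and between 0.51 and 0.62 in untreated DRD5-/-, and at most 0.17 and 0.31 with DA. The 3 members Ccl1, Ccl19 and Cxcl17, were listed at 0 in all M1 libraries.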
